A study of Danio rerio with 5 samples.

Results

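The genes ms4a17a.1, ms4a17a.2, ms4a17a.3 and ms4a17a.4 are zebrafish paralogues of the membrane-spanning 4-domains subfamily A. They were taken from the expression table by their gene symbols, each of which stood on 1 row, so that 4 of the 21854 genes in the table are described here. The RNA came from whole larvae at 2 weeks post-fertilization, to compare larvae that lack functional Zbtb24, a zinc finger protein mutated in a form of immunodeficiency, centromeric instability and facial anomalies syndrome, with wild-type larvae. By their labels and the study's methods, 3 libraries (labelled Mutant) came from larvae homozygous for mk22, a deletion of coding exons of zbtb24, and 2 (labelled WT) from wild-type larvae. The level of zbtb24 itself was not lower in the libraries labelled Mutant, as given with the depth of the libraries. The background of wild-type fish was AB, and 10 larvae were pooled for every library. The study's description gives 3 pools per genotype, and 2 libraries labelled WT were analysed here. A source label names the fin, whereas the design text names whole larvae. RNAs that mark internal organs, including the liver gene fabp10a and the lens gene cryaa, were detected in every library.

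MS4A proteins cross the membrane several times and have both ends in the cytoplasm. In mammals MS4A1 is CD20 of B cells, MS4A2 is the beta chain of the high-affinity receptor for immunoglobulin E, and MS4A4A is found on macrophages. The TMEM176 proteins are relatives with the same layout. Roles of the single zebrafish ms4a17a genes are not given here, and those of the mammalian proteins are not transferred to them.

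The libraries held 24504651 to 26711419 reads in the table for those labelled Mutant and 23796792 to 28601962 for those labelled WT. Values are scaled counts, which are numbers of reads after division by the library's size factor, and 1 read was worth 0.861 to 1.08. The targeted gene was not lower in the libraries labelled Mutant. zbtb24 had scaled counts of 155, 175 and 282 in the libraries labelled Mutant, against 127 and 77.3 in those labelled WT (log2 fold change 0.98, SE 0.28, adjusted p = 0.0642). Its level was thus higher in every library labelled Mutant. The table gives 1 value per gene, so reads over the deleted exons cannot be told apart from other reads of zbtb24. This level can therefore neither bear out nor contradict the labels. By qRT-PCR, the paper reports no detectable zbtb24 transcripts in homozygous fish. For these libraries the genotypes are known from the labels alone, and every direction given here is between labels. Mutant library and WT library stand for a library so labelled. The WT libraries are called 2 and 3 after their columns.

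All 4 paralogues had higher scaled counts in every library labelled Mutant than in either library labelled WT. Non-overlap was found for 22.3% of the 20307 genes tested in that direction and for 22.7% in the other, so it is common in this design. The more demanding test, limma's moderated test with p-values adjusted over all 20307 genes, called 2 of the 4 higher, ms4a17a.4 and ms4a17a.2, where 3.32% of tested genes were called higher. The other members, ms4a17a.3 and ms4a17a.1, did not pass. The median log2 fold change of the 4 was 0.91, against a median of -0.0014 over all genes tested. In RNA of whole larvae, more cells of a type and more RNA per cell cannot be told apart. The libraries are separate pools, and p-values measure the spread between these pools alone. Genes of this family were among those the study displayed as innate immune genes in these libraries, so their direction is not independent evidence.

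The largest change was that of ms4a17a.4 (ENSDARG00000014024). Its scaled counts were 173, 207 and 187 in Mutant libraries 1, 2 and 3, against 86.1 and 76.2 in WT libraries 2 and 3. The groups were far apart, since the lowest Mutant library was above the highest WT library by more than the range within either group. The mean was 189 ± 16.8 in Mutant libraries (SD, n = 3) and 81.2 ± 6.98 in WT libraries (SD, n = 2), a ratio of 2.33 (log2 fold change 1.21, SE 0.16, adjusted p = 0.0101). It was the only member past a 2-fold change and the adjusted p together, as were 0.704% of the tested genes in the same direction. The call was retained under each of 11 alternative settings, with adjusted p between 0.00962 and 0.0493, the highest being that without Mutant library 2.

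For ms4a17a.2 (ENSDARG00000093546) the scaled counts were 152, 193 and 161 in Mutant libraries 1, 2 and 3, against 90.4 and 111 in WT libraries 2 and 3. Mutant library 2 stood highest and the groups did not overlap. The means were 169 ± 21.3 in Mutant libraries (SD, n = 3) and 101 ± 14.7 in WT libraries (SD, n = 2), a ratio of 1.67 (log2 fold change 0.74, SE 0.17, adjusted p = 0.0412). This call lay near the threshold. It was lost without WT library 2 (log2 fold change 0.59, adjusted p = 0.286), without Mutant library 2 (0.64, adjusted p = 0.149), without Mutant library 1 (0.81, adjusted p = 0.0613) and without Mutant library 3 (0.77, adjusted p = 0.0551).

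The fewest reads were those of ms4a17a.3 (ENSDARG00000091970), with scaled counts of 30.7, 51.7 and 42.4 in Mutant libraries 1, 2 and 3, against 16.4 and 21.2 in WT libraries 2 and 3. These correspond to 31, 48 and 42 reads in Mutant libraries and to 19 and 20 reads in WT libraries. The 95% exact Poisson interval of Mutant library 1 reached from 20.8 to 43.5 scaled counts, which overlaps the interval of 12.9 to 32.7 of WT library 3, and such intervals cover counting error only. The groups did not overlap in their values, but the Mutant libraries were widely spread. The mean was 41.6 ± 10.5 in Mutant libraries (SD, n = 3) and 18.8 ± 3.40 in WT libraries (SD, n = 2). The ratio of 2.22 was close to that of ms4a17a.4 (log2 fold change 1.09, SE 0.30), with a larger error. The adjusted p was 0.0601, and none of the 10 alternatives that gave a value brought it under 0.05.

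For ms4a17a.1 (ENSDARG00000043798) the scaled counts were 94.99, 95.8 and 97.0 in Mutant libraries 1, 2 and 3, against 67.1 and 72.0 in WT libraries 2 and 3. The 3 Mutant libraries were nearly the same and all above both WT libraries. They rest on 96, 89 and 96 reads, so counting error is larger than their spread. The 95% exact Poisson interval of Mutant library 1, 76.9 to 116 scaled counts, overlaps that of WT library 3, 55.9 to 91.3. The mean was 95.9 ± 1.0 in Mutant libraries (SD, n = 3) and 69.6 ± 3.42 in WT libraries (SD, n = 2). The ratio of 1.38 was the smallest of the 4 members, and it did not pass (log2 fold change 0.46, SE 0.17, adjusted p = 0.129). Under the 11 alternatives its adjusted p was between 0.112 and 0.474.

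**Figure D1:**
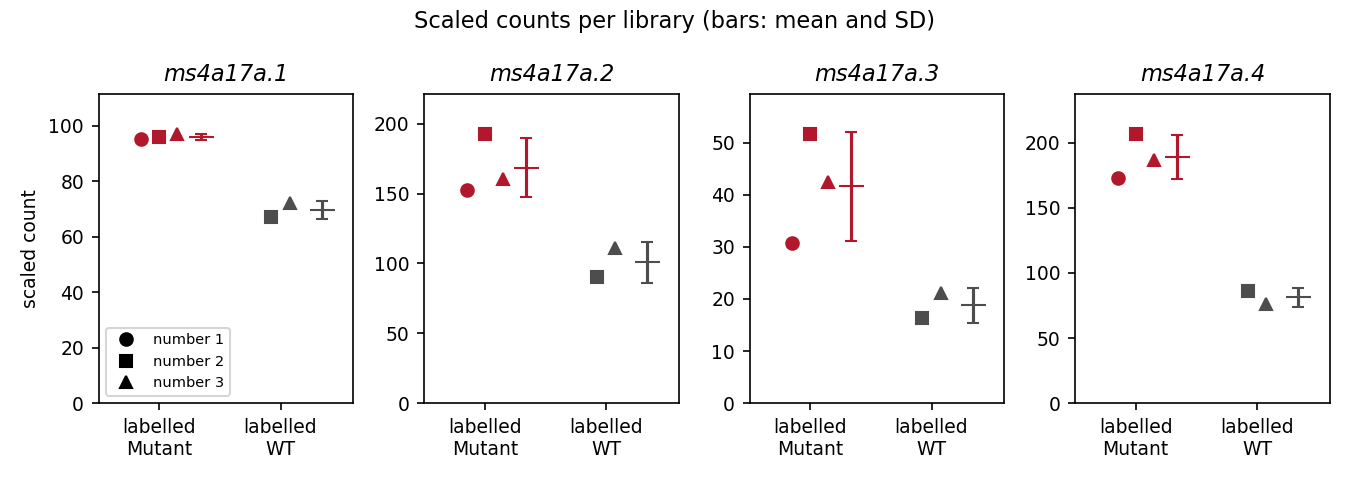
Scaled count (vertical axis, a separate scale from 0 for each gene) of the 4 ms4a17a genes in each library labelled Mutant (red, left) and labelled WT (grey, right), with the library number as the marker shape and the mean and SD as bars. No gene has overlapping groups, and the gap is widest for ms4a17a.4, where the Mutant libraries lie between 173 and 207 and the WT libraries at 76.2 and 86.1.

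**Figure D2:**
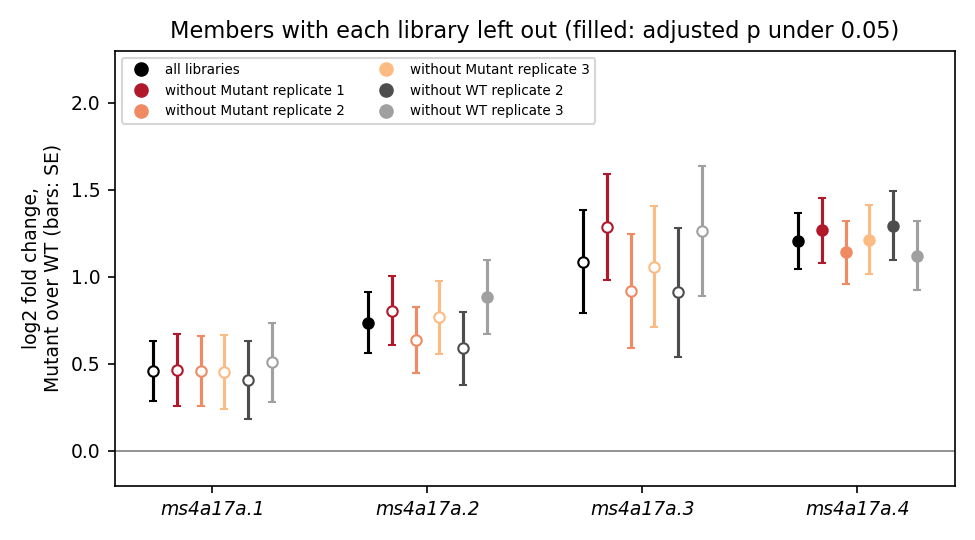
Log2 fold change of labelled Mutant over labelled WT (vertical axis, SE as bars) of the 4 members with all libraries and with each library left out in turn, filled where the adjusted p was under 0.05. ms4a17a.4 stays filled throughout at 1.12 to 1.29, ms4a17a.2 is filled with all libraries and without WT library 3, and ms4a17a.1 and ms4a17a.3 are open throughout.

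The summed scaled count of the 4 genes was 451, 547 and 487 in Mutant libraries 1, 2 and 3, against 260 and 281 in WT libraries 2 and 3, a ratio of means of 1.83. Since lengths of the genes were not used here, their levels are not set against each other, and only how each gene's part of this sum differed between libraries is given. The part held by ms4a17a.4 was 38.4, 37.8 and 38.4% in Mutant libraries, against 33.1 and 27.2% in WT libraries. That of ms4a17a.1 was smaller in Mutant libraries, with 21.1, 17.5 and 19.9% against 25.8 and 25.7% in WT libraries. The parts make up the whole in each library, so a larger part of one gene lowers those of others. The scaled count of ms4a17a.1 was itself higher in Mutant libraries. The parts of ms4a17a.2 and ms4a17a.3 overlapped between the groups.

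Whether the paralogues differed from one another in their change was tested within libraries, on the log2 difference between the members of each of the 6 pairs. With 3 libraries against 2 the exact two-sided permutation test cannot give a p below 0.1, so no pair could pass. The log2 difference of ms4a17a.1 to ms4a17a.4 was -0.86, -1.10 and -0.94 in Mutant libraries, against -0.35 and -0.08 in WT libraries. The groups did not overlap, and the change of ms4a17a.1 was smaller than that of ms4a17a.4 by 0.75 on the log2 scale (Mutant minus WT -0.75, exact p = 0.1, adjusted over 6 pairs 0.24). The pair of ms4a17a.2 and ms4a17a.4 also separated the groups (Mutant minus WT -0.47, exact p = 0.1, adjusted 0.24). For ms4a17a.3 and ms4a17a.4 the difference was -0.12 (Mutant minus WT, exact p = 0.8, adjusted 0.8) with all libraries. It was 0.14 without WT library 3, 0.02 without Mutant library 1, -0.22 without Mutant library 2, -0.38 without WT library 2 and -0.27 at a pseudocount of 8. The remaining pairs had exact p = 0.2 each. A p above the threshold in a design of this size does not show that any pair changed alike.

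The rest of the family moved in the same direction in part. Besides the 4 genes, 16 genes with MS4A or TMEM176 names were tested, of which limma called 4 higher in the libraries labelled Mutant, 0 lower and 12 in neither direction. At an unadjusted p under 0.05 there were 10, of which 1, ms4a17a.17, was lower. At that threshold 13.1% of all tested genes were higher and 13.6% lower. Fold changes of 13 of the 16 were positive, with a median of 0.40. Over all genes tested, 49.8% were positive, 3.32% were called higher and 2.68% were called lower. The count of 4 was 0 without WT library 2, and it was also 0 without Mutant library 2.

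The nearest in size of change among these was ms4a17a.5, with 248, 287 and 249 scaled counts in Mutant libraries, against 131 and 127 in WT libraries (log2 fold change 1.01, SE 0.14, adjusted p = 0.0125). ms4a17a.10 had 134, 174 and 148 in Mutant libraries, against 68.9 and 81.5 in WT libraries (log2 fold change 1.0, SE 0.18, adjusted p = 0.0217). Both thus had all Mutant libraries well above both WT libraries, as ms4a17a.4 did. ms4a17a.14 had 517, 567 and 408 in Mutant libraries, against 286 and 340 in WT libraries (log2 fold change 0.66, SE 0.16, adjusted p = 0.0421), with the groups again apart. Its call was lost without WT library 2 (0.54, adjusted p = 0.282), without Mutant library 2 (0.56, adjusted p = 0.1501), without Mutant library 1 (0.62, adjusted p = 0.0840) and with columns rescaled to equal totals (0.58, adjusted p = 0.0506).

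Other ms4a17a genes did not pass, and some were not higher. The log2 fold change was 0.41 for ms4a17a.9 (adjusted p = 0.0570), 0.34 for ms4a17a.11 (adjusted p = 0.0850) and 0.13 for the sparsely read ms4a17a.6 (adjusted p = 0.819). ms4a17a.7 had 303, 297 and 375 scaled counts in Mutant libraries, against 336 and 313 in WT libraries, with overlapping groups and a log2 difference of -0.01 (SE 0.14, adjusted p = 0.985) that was 0.0028 under quantile normalization. For ms4a17a.8 the change was -0.33 on the log2 scale (SE 0.32, adjusted p = 0.540). ms4a17a.17 was the only one of the family whose groups were apart in the other direction. It had 1021, 1108 and 822 scaled counts in Mutant libraries, against 1210 and 1328 in WT libraries (log2 fold change -0.38, SE 0.13), which did not pass (adjusted p = 0.114).

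Of the 6 TMEM176 genes 1 was called. tmem176l.4 had 2632, 3098 and 3253 scaled counts in Mutant libraries, against 1700 and 1816 in WT libraries (log2 fold change 0.76, SE 0.11, adjusted p = 0.0132), with a wide gap between the groups. The other 5 had log2 fold changes between 0.20 for tmem176 (adjusted p = 0.361) and 0.50 for tmem176l.3a (adjusted p = 0.141), whose value was 0.11 without WT library 3 and 0.88 without WT library 2. The MS4A gene ms4a17c.1 differed by 0.48 on the log2 scale with a large error (SE 0.35, adjusted p = 0.401).

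**Figure D3:**
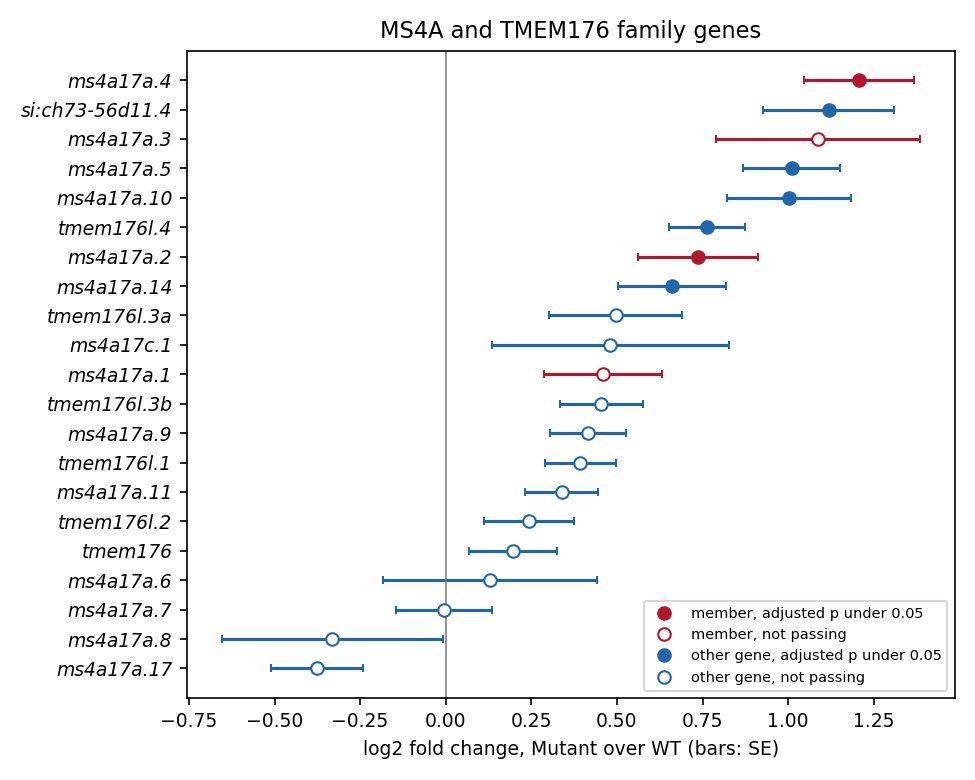
Log2 fold change of labelled Mutant over labelled WT (horizontal axis, points, with SE as bars) for the 4 members in red and the other MS4A and TMEM176 genes in blue, filled where the adjusted p was under 0.05. The genes run from 1.21 for ms4a17a.4 to -0.38 for ms4a17a.17, with ms4a17a.5 and ms4a17a.10 beside the members at the upper end.

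The genes lie together, with several paralogues between them. By gene identifier, all 4 members were placed on chromosome 4 in the RefSeq genes of assembly GRCz12tu, from which only the order of genes was used, since the counts were made on danRer7. Some names differ between the sources, and names here are those of the expression table. The table's ms4a17a.8 (ENSDARG00000094854) is now named ms4a17a.9, and its ms4a17a.9 (ENSDARG00000043802) is now ms4a17a.8. Its ms4a17a.14 (ENSDARG00000094809) is now ms4a17a.11, and its ms4a17a.17 (ENSDARG00000054898) is now ms4a17a.16. The identifier that the table calls ms4a17a.2 is now named si:ch73-56d11.5, and the gene that RefSeq calls ms4a17a.2 was matched to no row of the table, so the values given here for ms4a17a.2 belong to the identifier ENSDARG00000093546. The spans of the 4 members overlap no other gene in RefSeq. Among the other ms4a17a genes there, ms4a17a.5 overlaps ms4a17a.9 and the gene that RefSeq calls ms4a17a.2, and ms4a17a.7 overlaps LOC141381850. The reads of near-identical paralogues may also be assigned to the wrong copy or left uncounted, and this was not tested.

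In this order ms4a17a.1 came first of the members, followed by ms4a17a.3, ms4a17a.4 and ms4a17a.2, with other genes between each of them. From ms4a17a.1 to ms4a17a.2, both included, 8 genes were tested, of which 4 were called higher, beside 3.32% of all tested genes. Next to each other at the end with ms4a17a.2 stood ms4a17a.10, ms4a17a.4, si:ch73-56d11.4 and ms4a17a.2, each called higher with all libraries. The call of ms4a17a.10 was lost without Mutant library 2 (log2 fold change 0.90, adjusted p = 0.0914). Its log2 fold change was 0.88 without WT library 2. That of ms4a17a.2 was lost as given above, and si:ch73-56d11.4 was not followed under the alternatives. The gene si:ch73-56d11.4 (ENSDARG00000053563), now named ms4a17a.12, is named here after its values were seen. It had 111, 149 and 132 scaled counts in Mutant libraries, against 54.2 and 64.6 in WT libraries (log2 fold change 1.12, SE 0.19, adjusted p = 0.0209). With it, 6 of the 14 genes named ms4a17a in either source were called higher and 0 lower, and 11 of the 14 had a positive fold change. By the names used here alone, 5 of 13 were called higher and 10 were positive. Over all tested genes 3.32% were called higher, 2.68% were called lower and 49.8% were positive.

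Not every neighbour had this pattern. ms4a17a.7, beside ms4a17a.1, and ms4a17a.6, between ms4a17a.3 and ms4a17a.10, had log2 fold changes near 0 (-0.01 and 0.13). Towards the far end of the cluster ms4a17a.17, now named ms4a17a.16, had -0.38. Next to it lies the gene that RefSeq calls ms4a17a.17, which was matched to no row. Beyond these, ftr51 and zgc:153116 had log2 fold changes of -0.47 and -0.41, neither of which passed (adjusted p = 0.196 and 0.220). The genes ftr51 and zgc:153116 are the genes other than ms4a17a next in order on that side, and were named after their values were seen. On the other side, beyond ms4a17a.2, no gene was matched until trpm2, whose log2 fold change was 2.4e-05. How far the run of genes called higher reaches on that side is therefore not known.

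**Figure D4:**
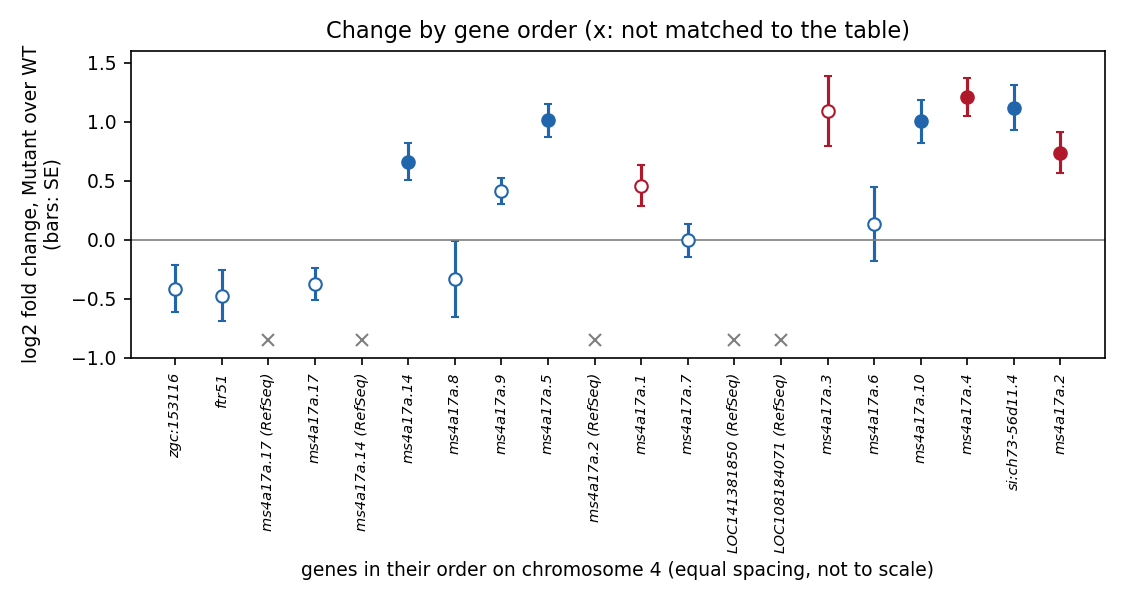
Log2 fold change of labelled Mutant over labelled WT (vertical axis, SE as bars) for genes in their order along chromosome 4, drawn at equal spacing, with members in red, other genes in blue, filled points at an adjusted p under 0.05 and crosses for genes not matched to the table. ms4a17a.10, ms4a17a.4, si:ch73-56d11.4 and ms4a17a.2 are filled and adjacent at one end, while ms4a17a.7 and ms4a17a.6, to the left of these, lie near 0. Genes beyond ms4a17a.2 are not drawn, and the fits are those with all libraries.

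Mutant library 2 had the highest scaled count of the 5 libraries for ms4a17a.2, ms4a17a.3 and ms4a17a.4, and Mutant library 3 for ms4a17a.1. Among the 14 ms4a17a genes Mutant library 2 was highest for 8, Mutant library 3 for 4 and Mutant library 1 for 0. Interferon-stimulated genes, which cells switch on through STAT transcription factors after interferon binds its receptor, had the same leading library. Of the 42 of them tested, Mutant library 2 was highest for 22, Mutant library 3 for 15 and Mutant library 1 for 1. How often each library was highest over all tested genes was not determined. These counts therefore stand without a background, and a likeness between the lists cannot be read from them.

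Of these interferon-stimulated genes 16 of 42 were called higher by limma and 0 lower, with 38 positive and a median of 0.73 on the log2 scale. At an unadjusted p under 0.05 there were 28, of which 1 was lower, beside 13.1% higher and 13.6% lower of all tested genes. By limma's adjusted p, 3.32% of all tested genes were called higher and 2.68% lower. The list may share genes with those the study displayed for these libraries. The count of genes called higher was 2 without Mutant library 2 and 0 without WT library 2. The 3 with the smallest p were gbp1, an interferon-induced GTPase (log2 fold change 1.03, adjusted p = 0.00853), psmb8a, a subunit of the immunoproteasome (1.19, adjusted p = 0.0109), and ifi35 (0.92, adjusted p = 0.0128). stat1b, a STAT transcription factor of this pathway that was named after its values were seen, had 154, 231 and 244 scaled counts in Mutant libraries, against 84.4 and 91.0 in WT libraries (log2 fold change 1.22, adjusted p = 0.0205). Mutant library 1 was the lowest of its group for stat1b and still above both WT libraries, as it was for each member. The paralogue stat1a overlapped between the groups (log2 fold change 0.16, adjusted p = 0.352), and 26 of the 42 genes did not pass.

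The genes whose relative levels over the 5 libraries lay nearest to each member were mixed in kind. Likeness was the root mean square difference of log2 values, each gene centred on its own mean over the 5 libraries, among 20303 genes. For ms4a17a.3 the nearest was si:ch211-149f21.3 (0.046), and the second was zgc:152791, an ifi27-like gene of the interferon-stimulated list (0.048, log2 fold change 1.16). For ms4a17a.4 the nearest was zgc:153654 (0.098), and ms4a17a.5 was the fifth (0.11). The nearest to ms4a17a.2 was hmbsb, an enzyme of heme synthesis (0.027), and to ms4a17a.1 tnnc1b, a troponin C gene (0.027). tp63, a transcription factor of the epidermal list, was the fourth nearest to ms4a17a.1 (0.033). The 5 points fall into 2 groups, and no test of likeness was made.

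Markers of the cells that carry MS4A proteins in mammals, and of the tissues a whole larva holds, are given beside these values. Of 16 macrophage genes tested 2 were called higher and 0 lower by limma, beside 3.32% and 2.68% of all tested genes. Those called were mpeg1.1, a perforin-like gene of macrophages (log2 fold change 0.67, adjusted p = 0.0209), and lgals2a (0.46, adjusted p = 0.0361). At an unadjusted p under 0.05 there were 8 of the 16, of which 1 was lower. Of all tested genes 13.1% were higher and 13.6% lower at that threshold, against which this and the counts at an unadjusted p for the other marker lists are to be read. Over all genes, scaled counts summed to 26374300 to 26430200 in Mutant libraries, against 24622900 and 25190700 in WT libraries. This total was thus also higher in Mutant libraries, and sums of the lists are not corrected for it. The summed scaled count of macrophage genes was 7910 in Mutant library 1, close to 7898 in WT library 3. Relative to the mean of WT libraries, it was 1.08 to 1.17 in Mutant libraries, against 0.918 to 1.08 in WT libraries. For 11 general leukocyte genes the sum was 1.20 to 1.34 in Mutant libraries, against 0.906 to 1.09 in WT libraries, with 0 of 11 called by limma and 6 of 11 at an unadjusted p under 0.05, all of them higher. The members' sum, at 1.67 to 2.02 in Mutant libraries against 0.962 to 1.04 in WT libraries, differed by more than either list. In WT libraries CD68 had a mean scaled count of 2815 and grn1 of 1476, of 7302 for all macrophage genes. The change of grn1 was -0.68 on the log2 scale. Some single macrophage genes, named after their values were seen, lay within the members' range of 0.46 to 1.21 on that scale. Among them mfap4 had 0.99 (adjusted p = 0.068) and c1qa 0.87 (adjusted p = 0.069). Others, also named after their values were seen, lay near 0, with -0.07 for csf1ra, -0.04 for csf1rb and -0.01 for spi1b. The median of the 16 was 0.33, with 12 positive.

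Lymphocyte markers had sums that were lower or overlapped between the groups, but each sum rests mainly on a single gene and can differ from most of its list. In WT libraries gata3 had a mean scaled count of 1188, of 1754 for all T and NK cell genes. There ebf1a had 1023, of 1166 for all B cell genes. The defining B cell markers cd79a and cd79b were not matched. The 4 B cell genes matched had a summed level of 0.886 to 0.935 in Mutant libraries, against 0.960 to 1.04 in WT libraries, with 0 of 4 called by limma, 0 of 4 at an unadjusted p under 0.05 and 0 of 4 positive. The sums of T and NK cell genes overlapped between the groups, at 0.897 to 1.13 in Mutant libraries against 0.989 to 1.01 in WT libraries. Neutrophil genes reached 1.75 in Mutant library 1 and 1.19 and 1.22 in the other Mutant libraries, against 0.988 and 1.01 in WT libraries. By limma 0 of 13 neutrophil genes and 0 of 9 T and NK cell genes were called. At an unadjusted p under 0.05 there were 6 neutrophil genes, all higher, and 4 T and NK cell genes, of which 1, gata3, was lower (log2 fold change -0.25). Of the 9 T and NK cell genes 7 had a positive log2 fold change, with a median of 0.34. Mutant library 1, where the sum of neutrophil genes was highest, had the lowest sum of the 4 members among Mutant libraries. In that library lect2l, mpx and mmp9 had scaled counts of 1502, 1345 and 1299, of 8545 for all neutrophil genes. A relation between the sums of neutrophil genes and of members was not tested.

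Epidermal genes had the largest ratio of summed levels among the marker lists. All 10 of 10 had non-overlapping groups and were higher, as were 22.3% of all tested genes. By limma 4 of the 10 were called higher, beside 3.32% of all tested genes. At an unadjusted p under 0.05 there were 10 of 10. The summed level was 1.44 to 1.47 in Mutant libraries, against 0.943 to 1.06 in WT libraries. This sum rests mainly on krt5 and krt4, with mean scaled counts of 118480 and 96672 in WT libraries, of 284309 for all epidermal genes. Those called include agr1 (log2 fold change 0.94), evpla, an envoplakin gene (0.73), and krt5, a basal keratin (0.67). Of 12 intestinal genes 1 was called, apoa4a (1.59, adjusted p = 0.0286), with sums of 1.13 to 1.20 in Mutant libraries, against 0.965 to 1.04 in WT libraries. At an unadjusted p under 0.05 there were 5 of the 12, all higher. In WT libraries apoa1a had a mean scaled count of 76561, of 137505 for all intestinal genes. Of the larval organ markers 1 of 10 was called lower, the lens crystallin gene cryaa (log2 fold change -0.97, adjusted p = 0.00577). Of all tested genes 2.68% were called lower. At an unadjusted p under 0.05 there were 6 of the 10. Of these, cryaa, rho (-0.41) and elavl3 (-0.40) were lower, and fabp10a (0.49), myl7 (0.42) and mylpfa (0.37) were higher. None of the defining markers that were matched was at 0. The part of any of these cell types in the values of the 4 genes was not tested.

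**Figure D5:**
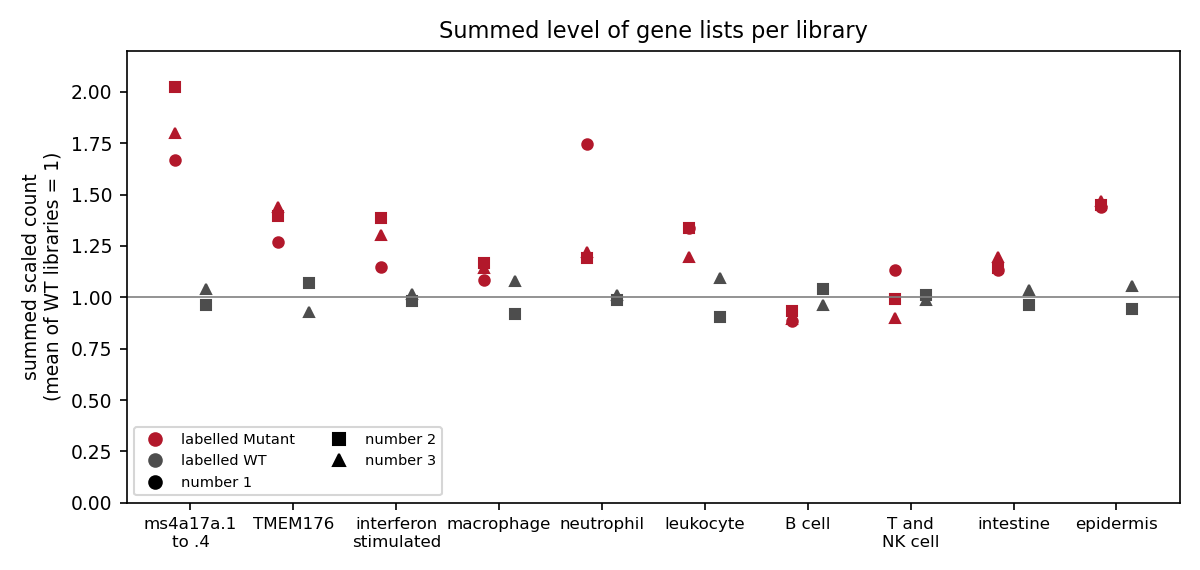
Summed scaled count of the 4 ms4a17a genes and of each gene list (vertical axis, mean of the WT libraries set to 1) in the libraries labelled Mutant (red, left) and labelled WT (grey, right), with the library number as the marker shape. The 4 genes reach 1.67 to 2.02 in Mutant libraries, epidermal genes 1.44 to 1.47 and macrophage genes 1.08 to 1.17. The B cell genes matched, whose sum rests mainly on ebf1a, lie at 0.886 to 0.935. Scaled counts summed over all genes were also higher in Mutant libraries, and the lists are not corrected for this.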

How the data were processed

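The deposited table holds a signal per gene and library. The authors aligned stranded poly(A) reads to danRer7 with STAR, counted them per gene with HTSeq 0.5.3 and scaled the counts with DESeq; use of strand is not stated. The value minus 1 is the scaled count, a whole multiple of 1 read for 100% of values (tolerance 0.05). Scaled counts plus a pseudocount of 1 were tested on the log2 scale with limma 3.58.1 (R 4.3.3, intensity trend, two-sided, Benjamini-Hochberg adjustment, threshold 0.05) where the mean was at least 10, so folds of low genes are understated. Reads recovered in this way were used for depth and Poisson intervals, and count models were not run on them.

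Named genes were zbtb24, the members, genes with MS4A or TMEM176 names, genes next to the members in RefSeq order (10 on each side were looked up), the 5 nearest genes of each member, and of each list the 3 genes with the smallest p. Not all of these appear in the text, and some further genes of the lists were named after their values were seen. Of 48 interferon-stimulated symbols written 44 were found, and of 9 B cell symbols 4. Of gene identifiers, 93.7% were in the gene name table. Members, lists and tests were chosen with earlier results of these data known. Alternatives changed the pseudocount, the filter, the scaling and the libraries included.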

Additional observations from a re-analysis of the deposited data

How the results depend on the processing

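Fold changes of the 4 members were positive under all 11 alternatives (10 for ms4a17a.3, which the filter at a mean of 50 leaves out). With 1 library left out, ms4a17a.2 had log2 fold changes of 0.59 to 0.88 and 1 to 2 members were called higher. Among all tested genes, 31 to 1317 were then higher, 13 to 1111 lower, 24 to 311 at least 2-fold higher and 12 to 214 at least 2-fold lower. The other MS4A and TMEM176 genes called higher numbered 0 to 6, interferon-stimulated genes 0 to 19 (median log2 fold change 0.53 to 0.87) and marker genes 0 to 17. The value of ms4a17a.7 was -0.11 to 0.054, and that of the pair of ms4a17a.3 and ms4a17a.4 was -0.38 to 0.14. Where a group kept 1 WT library, that library was assumed to vary like the others. With columns rescaled to equal totals, 1103 genes were lower and 118 at least 2-fold lower, and over all tested genes the median was -0.09 on the log2 scale. With the filter at a mean of 50, 11 marker genes were higher. Quantile normalization gave 0.0028 for ms4a17a.7. Other causes were not tested. No paired analysis was possible because column numbers of WT libraries cannot be tied to the sample titles. The planned count models were not run. Reads of ms4a17a.3, 19 to 48 per library, limit its precision.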
